A study of Mus musculus with 2 samples.

Results

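The epidermal growth factor (EGF) receptors and their ligands were examined in the mouse ventral prostate, a secretory lobe that depends on androgens, with and without U19/Eaf2. U19/Eaf2 is an androgen-induced partner of ELL transcription elongation factors that is studied as a tumour suppressor, and the series asked which mRNAs differ when it is lost. The family was taken as 10 genes, the receptors Egfr, Erbb2, Erbb3 and Erbb4 and the ligands Egf, Tgfa, Hbegf, Areg, Ereg and Btc. Every probe set that the platform annotation gives to exactly 1 of these symbols was used, which gave 20 of the 34945 single-symbol probe sets, for 9 of the 10 genes. No probe set was listed for Areg, which was not analysed here. A U19/Eaf2 -/- sample and a U19/Eaf2 +/+ sample were compared, both ventral prostate of male C57BL/6J mice at 3 months of age, with 1 sample per genotype and 1 Affymetrix array per sample. The titles speak of prostates in the plural, but the sources used here give neither the number of animals behind each sample nor the part of the gene that was deleted. There were no replicates, so no test was possible, and every comparison describes these 2 arrays.

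The ErbB receptors are membrane tyrosine kinases that act as dimers. Egfr, Erbb3 and Erbb4 bind ligand, Erbb2 has no known soluble ligand and is the preferred partner of the others, and Erbb3 has a weak kinase and signals mainly through the phosphoinositide 3-kinase pathway. Egf, Tgfa and Areg bind Egfr, while Hbegf, Btc and Ereg can also act on Erbb4. Each ligand is made as a membrane precursor and is released by proteases of the ADAM family. In the prostate, epithelial cells carry receptors of this family and EGF is a component of the secretion.

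The receptor gene read by the most probe sets, Egfr, and the ligand gene with the highest gene-level ratio, Egf, are shown here by the 250 bases before their annotated transcription starts, as examples of the genomic starts of a receptor and a ligand gene. The sequences are from RefSeq, build GRCm38.p6, written 5′ to 3′. RefSeq lists 2 starts for Egf, and the one at the 5′ end of the gene is shown. The Egfr window is chr11:16751953-16752202, on the plus strand, and the Egf window is chr3:129755323-129755572, on the minus strand. Capitals mark matches to TTTAAA, a variant of the TATA box, or to GGGCGG, the core of a GC box, in either orientation.
Egfr: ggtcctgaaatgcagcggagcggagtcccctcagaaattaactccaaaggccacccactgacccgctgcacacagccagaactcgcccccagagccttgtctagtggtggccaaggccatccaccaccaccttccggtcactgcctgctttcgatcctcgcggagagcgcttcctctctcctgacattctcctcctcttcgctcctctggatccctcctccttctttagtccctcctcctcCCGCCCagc
Egf: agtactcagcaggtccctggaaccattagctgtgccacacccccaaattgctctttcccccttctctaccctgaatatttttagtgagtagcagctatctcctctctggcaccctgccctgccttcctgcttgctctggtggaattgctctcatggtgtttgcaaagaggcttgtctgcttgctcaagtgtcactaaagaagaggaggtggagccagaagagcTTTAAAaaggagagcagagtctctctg
The Egf window shown held TTTAAA, beginning 27 bases before the start, a motif found in 12.1% of 32851 RefSeq windows of the same length. The window of the other Egf start, chr3:129725087-129725336, held none of the 4 motifs searched. The Egfr window held GGGCGG as its reverse complement, beginning 9 bases before the start, a motif found in 32.7% of windows. Neither window shown held TATAAA (12.4% of windows) or AGAACA, an androgen receptor half-site (16.1% of windows), in either orientation. The Egfr window was 60.8% G or C and the Egf window 50.4%, against a median of 52.4% over all windows. A match or its lack describes these letters only, and the arrays measured no binding.

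The values are linear probe-set signals in arbitrary units. A floor of 166, the median of all non-control signals pooled over both arrays, was used in place of detection calls, which were not used here. A probe set entered if its signal was at or over the floor on either array, a lower value was raised to it, and a ratio with a raised value is a bound. Differences are log2 ratios of the array labelled knockout over the wild-type array, so that 1 means 2-fold. Of the 20 family probe sets, 15 entered, 13 of them over the floor on each array, and 5 lay below it on both. No level is compared between genes, since probe sets differ in how strongly they hybridise.

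On the arrays as a whole, the Eaf2 probe set read 702 on the array labelled knockout, against 691 on the wild-type array, so the label rests on the submitters' record alone. Whether this probe set reads deleted sequence is unknown from the sources used here. Prostate secretory markers were bright on both arrays, among them Spink1 at 64718 on the array labelled knockout and 62610 on the wild-type array and Pbsn, probasin, at 26812 on the array labelled knockout and 34870 on the wild-type array. None of the 5 seminal vesicle markers with a probe set reached the floor on either array at its brightest probe set. The array labelled knockout had lower signals for 6 of 6 smooth muscle and 6 of 6 fibroblast markers (median log2 ratios -0.56 and -0.32). It also had lower ones for 3 of 4 urothelial markers (median -0.54). The 2 entering skeletal muscle markers were unlike, Ckm at -0.05 and Acta1 at -0.77 (median -0.41). Of all genes that entered, 53.0% were lower. Higher on the array labelled knockout were 3 of 3 entering adipocyte markers (median 0.84), of which Adipoq is a bound. Medians were smaller for endothelial (0.01, 2 of 4 higher), basal epithelial (0.04, 2 of 3 higher) and leukocyte and macrophage markers (0.12, 3 of 4 higher). The 3' over 5' signal ratio for Actb was 1.65 on the array labelled knockout, against 1.25 on the wild-type array. For Gapdh it was 0.85 on the array labelled knockout, against 0.71 on the wild-type array. In whole-tissue RNA, a change in the share of a cell type and a change in RNA per cell cannot be told apart.

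**Figure D1:**
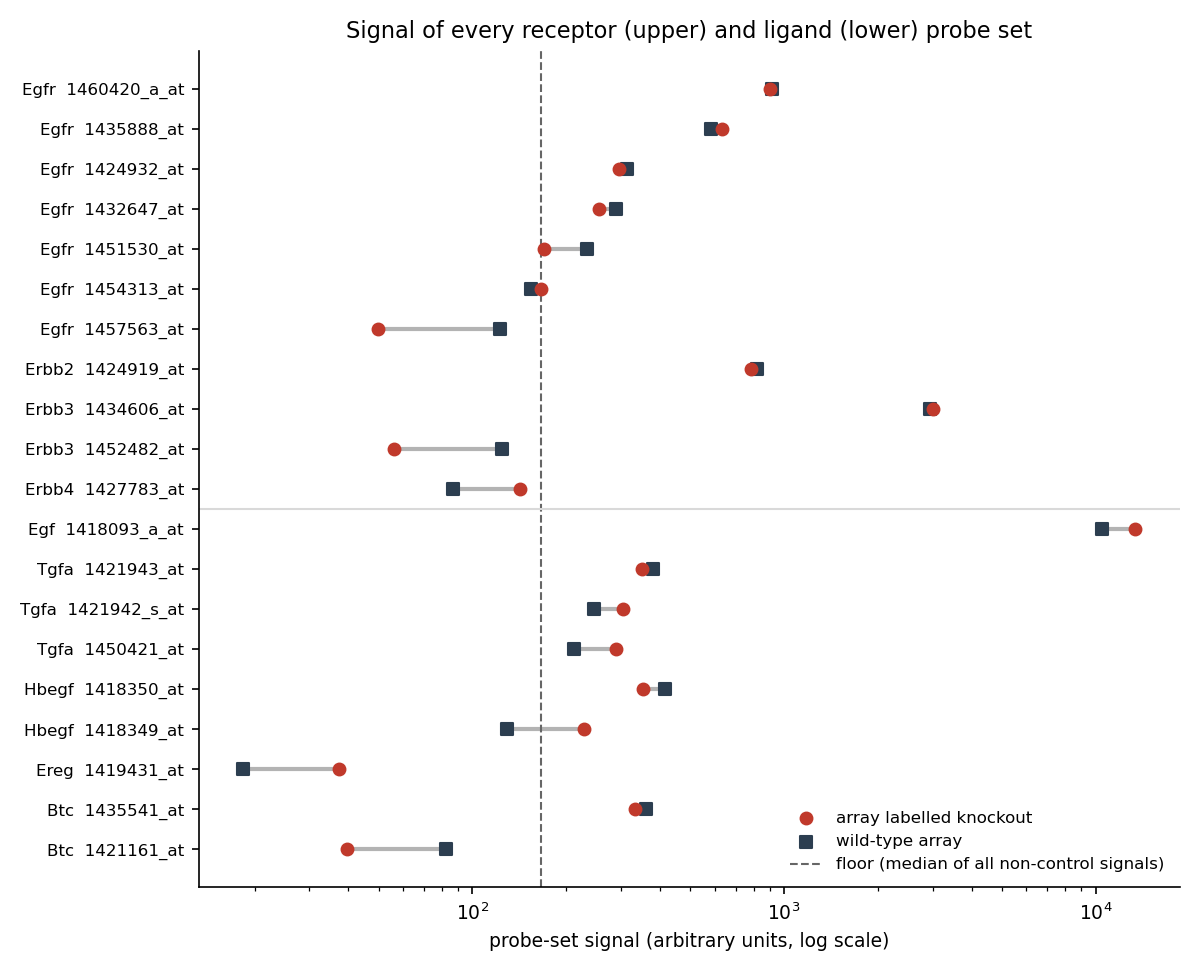
Signal of all 20 probe sets of the EGF receptor family on the array labelled knockout (red circles) and the wild-type array (dark squares), on a log axis in arbitrary units, with receptors above the grey line and ligands below it and the floor of 166 as a dashed line. The symbols nearly coincide for the brightest probe sets of Egfr, Erbb2 and Erbb3, Egf lies to the right at 13393 on the array labelled knockout and 10497 on the wild-type array, and the widest gaps are at probe sets below the floor on 1 or both arrays.

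The measured part of the family, which leaves out Areg, Erbb4 and Ereg, read much alike on the 2 arrays. None of its 15 entering probe sets differed by 2-fold, against a background of 1.72% of the 20538 single-symbol probe sets that entered, and none reached 1.5-fold with values raised to the floor, against 12.5%. Among the 15, Hbegf 1418349_at, has only a lower bound and was 1.76-fold higher as deposited. Beside backgrounds this low, a count of 0 among 15 does not set the family apart. Log2 ratios ran between -0.45 for an Egfr probe set and 0.46 for an Hbegf probe set, this second value a bound, with 7 higher and 8 lower on the array labelled knockout. Of all 20538 single-symbol probe sets that entered, 45.2% were higher and 54.8% lower. With the brightest probe set standing for the gene, 7 genes entered, 2 higher and 5 lower, with a median log2 ratio of -0.06, beside -0.03 over all 11671 genes that entered. Of all genes, 53.0% were lower.

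Among the receptors, Egfr, which binds EGF, TGF-alpha and amphiregulin, was read by 7 probe sets. Its brightest, 1460420_a_at, read 902 on the array labelled knockout and 913 on the wild-type array, a log2 ratio of -0.02. The next, 1435888_at, read 634 on the array labelled knockout and 581 on the wild-type array, a log2 ratio of 0.13. These differ in direction, and both lie close to 0. The brightest is of a suffixed kind, whose probes may match several transcripts. Without suffixed probe sets, Egfr came to 0.13.

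Egfr also had 2 pairs of probe sets that share a source sequence. In one pair, 1424932_at read 296 on the array labelled knockout and 313 on the wild-type array (log2 ratio -0.08), while 1451530_at read 170 on the array labelled knockout and 233 on the wild-type array (-0.45). In the other pair, 1432647_at read 254 on the array labelled knockout and 289 on the wild-type array (-0.19), while 1454313_at read 166 on the array labelled knockout and 155 on the wild-type array, at the edge of the floor. The lowest Egfr ratio thus came from a probe set close to the floor, and its partner of the same source lay near 0.

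Over the 5 Egfr probe sets that exceed the floor on each array, log2 ratios spanned 0.58. The median span was 0.77 over the 178 genes with as many such probe sets, and 27.0% of them spanned no more than Egfr. The remaining Egfr probe set, 1457563_at, was below the floor on both arrays, at 49.7 on the array labelled knockout and 123 on the wild-type array. No probe set of Egfr above the floor showed a difference of that size.

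Erbb2, the receptor without a soluble ligand, had 1 probe set, which read 784 on the array labelled knockout and 816 on the wild-type array. Its log2 ratio of -0.06 was exceeded in size by 86.5% of genes. Erbb3, the partner with the weak kinase, read 3011 on the array labelled knockout and 2938 on the wild-type array at its bright probe set, 1434606_at. Its log2 ratio of 0.04 turned to -0.04 under quantile normalization and -0.03 under loess, so no direction can be read from it. The other Erbb3 probe set, 1452482_at, lay below the floor on both arrays, at 56.0 on the array labelled knockout and 124 on the wild-type array.

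Erbb4, the receptor for neuregulins and some EGF-family ligands, had a single probe set, which stayed below the floor at 142 on the array labelled knockout and 86.4 on the wild-type array. No ratio is given for it, and a signal below the floor does not show that the transcript was absent. Of 8 entering receptor probe sets, 3 were higher and 5 lower, with a median log2 ratio of -0.04. Over all single-symbol probe sets that entered, 54.8% were lower and the median was also -0.04.

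**Figure D2:**
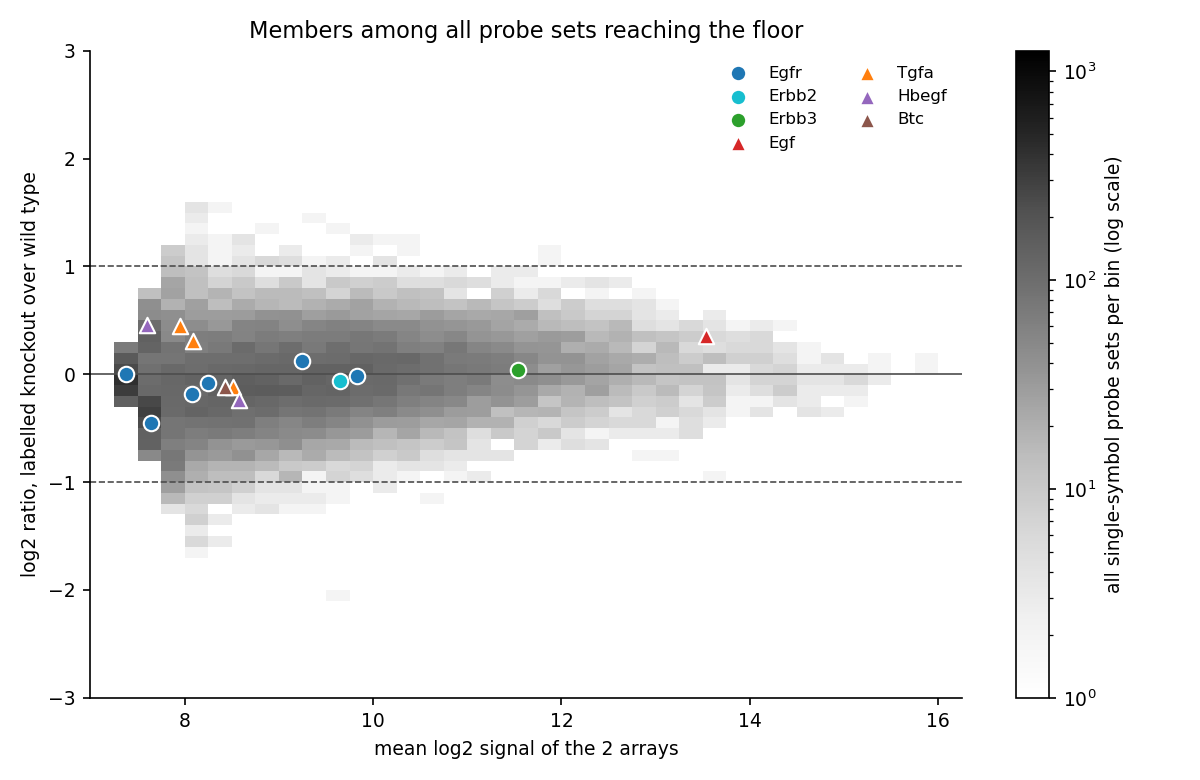
Log2 ratio of the array labelled knockout over the wild-type array against mean log2 signal for the 15 family probe sets that reached the floor (circles, receptors; triangles, ligands), over all 20538 such probe sets as grey bins, with dashed lines at 2-fold. All 15 lie inside the dashed lines, and Egf, at the bright end, lies above 0 at 0.35.

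Among the ligands, Egf, the ligand that gives the family its name, had 1 probe set, 1418093_a_at. It read 13393 on the array labelled knockout and 10497 on the wild-type array, 1.28-fold higher, a log2 ratio of 0.35. This was the highest gene-level ratio in the family, and it ran from 0.31 under loess to 0.40 under median centring. It was no larger than the spread between probe sets of a gene, 0.35 (SD per probe set, log2, over 4497 genes with 2 or more probe sets that exceed the floor on each array), and 31.3% of all genes lay at least as far from 0. The probe set is of a suffixed kind, whose probes may match several transcripts, and no other reading of Egf could be set beside it. Luminal epithelial markers on the same arrays had a median log2 ratio of 0.08, 3 of 6 higher, and a summed signal of 75219 on the array labelled knockout and 69686 on the wild-type array. Ventral prostate secretory markers had a median of -0.27, 2 of 6 higher and 4 lower, and a summed signal of 138293 on the array labelled knockout and 153119 on the wild-type array. This list also holds the transcription factor genes Hoxb13 (-0.17) and Spdef (-0.56) and the membrane protease gene Tmprss2 (0.53). Most of its summed signal came from Spink1 (0.05), Msmb (-0.37) and Pbsn (-0.38). The part of either list in the Egf value was not tested.

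Tgfa, which encodes TGF-alpha, an Egfr ligand of epithelial cells, was read by 3 probe sets of 1 source sequence that disagreed. The brightest, 1421943_at, read 351 on the array labelled knockout and 381 on the wild-type array, a log2 ratio of -0.12. The others were higher on the array labelled knockout, where 1421942_s_at read 303 and 1450421_at read 290, against 246 and 212 for the same probe sets on the wild-type array, log2 ratios of 0.30 and 0.45. Their span of 0.57 was close to the median of 0.54 over the 1116 genes with as many probe sets above the floor. The direction of Tgfa therefore depends on which probe set stands for it, being -0.12 by the brightest and 0.30 by the median over all 3.

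Hbegf, the heparin-binding ligand, had a pair of probe sets on 1 source sequence, which also went opposite ways. The brighter, 1418350_at, read 353 on the array labelled knockout and 416 on the wild-type array, a log2 ratio of -0.24. The dimmer, 1418349_at, read 228 on the array labelled knockout and 129 on the wild-type array, under the floor, at least 1.37-fold higher. Their log2 ratios therefore lay at least 0.69 apart, and the direction of Hbegf depends on the probe set.

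Btc, betacellulin, which acts on Egfr and Erbb4, read 332 on the array labelled knockout and 360 on the wild-type array at 1435541_at, a log2 ratio of -0.12 that came to -0.01 under quantile normalization. Its other probe set, 1421161_at, was below the floor, at 39.7 on the array labelled knockout and 82.4 on the wild-type array. Ereg, epiregulin, had 1 probe set, far below the floor at 37.3 on the array labelled knockout and 18.4 on the wild-type array. Of 7 entering ligand probe sets, 4 were higher and 3 lower, beside 45.2% higher over all single-symbol probe sets that entered. The median log2 ratio of the ligands was 0.30 over probe sets and -0.12 over the 4 genes, the sign thus turning with how Tgfa and Hbegf are counted.

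Of the 5 family probe sets below the floor on both arrays, 4 differed by 2-fold or more as deposited. On the array labelled knockout, 3 of the 5 were lower by 2-fold or more (Egfr 1457563_at, Erbb3 1452482_at and Btc 1421161_at) and 1 was higher by as much (Ereg). Over all 14407 single-symbol probe sets below the floor on both arrays, 37.2% differed by 2-fold as deposited, 24.0% lower and 13.2% higher. With every probe set taken as deposited, 4 of the 20 family probe sets passed 2-fold, against 18.4% of all single-symbol probe sets. Ratios of this size are thus common at such signals, and for Egfr, Erbb3 and Btc the brighter probe sets of the same gene read from -0.45 to 0.13.

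**Figure D3:**
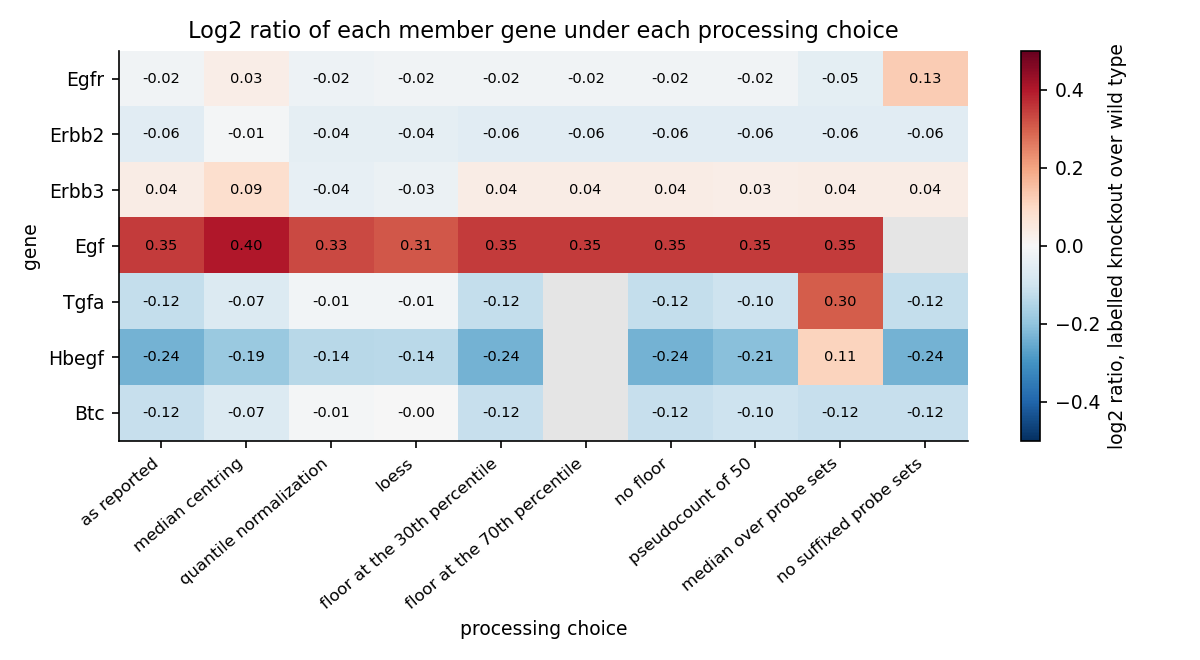
Log2 ratio of the array labelled knockout over the wild-type array for each of the 7 family genes that entered (rows), under the reported processing and 9 alternatives (columns), coloured from blue (lower) to red (higher), with grey where the gene had no value. Egf is positive in every column that gives it a value, Tgfa and Hbegf turn positive with the median over probe sets, and Egfr, Erbb2 and Erbb3 stay between -0.06 and 0.13.

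The rest of the pathway was examined by gene lists, in which a gene's probe sets are counted where they reached the floor. For comparison with the counts below, 47.0% of all 11671 genes that entered were higher on the array labelled knockout and 53.0% lower. Among other ErbB ligands, neuregulin 2 (Nrg2), a ligand of Erbb3 and Erbb4, read 467 on the array labelled knockout and 569 on the wild-type array, a log2 ratio of -0.28. Nrg4 read 98.8 on the array labelled knockout, below the floor, and 168 on the wild-type array. Nrg1, Nrg3 and epigen (Epgn) were below the floor on both arrays at their brightest probe sets.

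Of 11 genes of ligand shedding, 8 entered, 5 higher and 3 lower, with a median log2 ratio of 0.12. With values raised to the floor none was past 2-fold, beside 1.47% of all genes past 2-fold in either direction. The highest were Rhbdl2, a rhomboid protease, at 0.55, with 2 of 3 probe sets lower, and Rhbdf1, an inactive rhomboid that guides ADAM17 to the surface, at 0.33. The lowest were Timp3, an inhibitor of ADAM17, at -0.66, with 1 of 4 probe sets higher, and the protease Adam19, at least 1.51-fold lower. Adam19 has only a bound, since it read 89.2 on the array labelled knockout, below the floor, and 251 on the wild-type array. A floor at the 30th percentile turned the list's median to -0.15, and the median over each gene's probe sets turned it to -0.20.

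Receptor adaptors and signal relays had 19 of 20 genes entering, 13 higher and 6 lower, with a median of 0.14. None was past 2-fold, beside 1.47% of all genes past 2-fold in either direction, and 47.0% of all genes were higher. Grb2, the adaptor that links ErbB receptors to Ras, read 1340 on the array labelled knockout and 778 on the wild-type array, a log2 ratio of 0.78, while its other probe set in use went the opposite way. The docking protein Gab2 read 1359 on the array labelled knockout and 806 on the wild-type array, a log2 ratio of 0.75, but 2 of its 3 probe sets were lower. The lowest were the adaptors Nck2, at -0.58, and Shc1, at -0.37 with both probe sets lower. The list's median turned to -0.11 with the median over each gene's probe sets.

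Receptor inhibitors and turnover genes had 20 of 23 entering, 11 higher and 9 lower, with a median of 0.05. Ptpn2, a tyrosine phosphatase that acts on Egfr among other proteins, read 3548 on the array labelled knockout and 1250 on the wild-type array, 2.84-fold higher with both probe sets higher, and was the only one past 2-fold, beside 0.591% of all genes at least 2-fold higher. Spry2, a feedback inhibitor of receptor tyrosine kinase signalling, read 3027 on the array labelled knockout and 1984 on the wild-type array, a log2 ratio of 0.61 in its only probe set in use. The lowest were Rnf41, the ubiquitin ligase that controls Erbb3 levels, at -0.47 with 1 of 3 probe sets higher, and Usp8, a deubiquitinase of receptor sorting, at -0.36.

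Genes that respond to ERK signalling had 17 of 23 entering, 6 higher and 11 lower, with a median of -0.11, while 53.0% of all genes were lower. With values raised to the floor none was past 2-fold, beside 1.47% of all genes past 2-fold in either direction. Among the lower genes, Dusp5 and Etv5 have only bounds, since their signals on the array labelled knockout, 49.3 and 64.3, were raised to the floor. Their signals on the wild-type array were 216 and 196. Among the genes over the floor on both arrays, the lowest were the phosphatase gene Dusp1, at -0.70, and Junb, at -0.65. The highest were the urokinase receptor Plaur, at 0.47, and Klf6, at 0.39, with 2 of 5 probe sets lower. Dusp1 and Junb are immediate-early genes, transcribed soon after a stimulus. Smooth muscle markers were lower in 6 of 6 genes, with a summed signal of 37125 on the array labelled knockout and 50299 on the wild-type array. Fibroblast markers were also lower in 6 of 6 genes, with 18357 on the array labelled knockout and 21578 on the wild-type array. Urothelial markers were lower in 3 of 4 genes, while 3 of 3 entering adipocyte markers were higher. The part of any of these marker lists in the median of the ERK response genes was not tested.

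**Figure D4:**
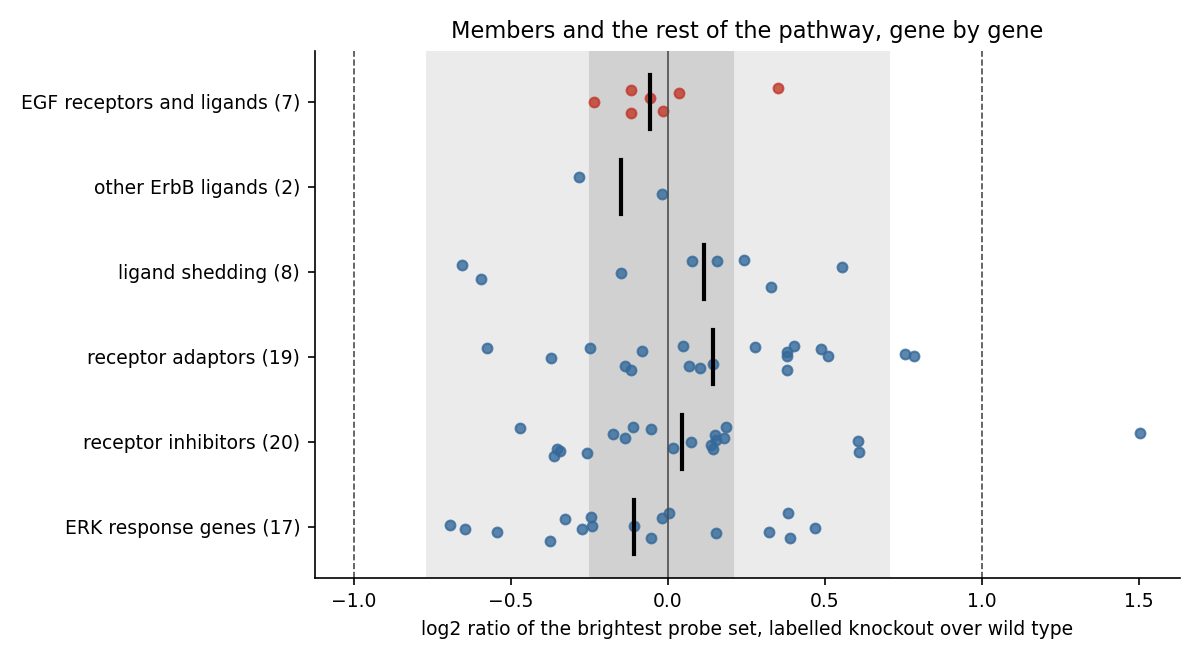
Log2 ratio of the array labelled knockout over the wild-type array by the brightest probe set, 1 point per gene, for the EGF receptors and ligands (red) and 5 lists of the pathway (blue), with the number of entering genes in parentheses and black bars at the medians. The dark grey band holds the 25th to 75th percentile of all 11671 genes, -0.25 to 0.21, and the light band runs from -0.77 to 0.70, with dashed lines at 2-fold; Ptpn2, at 1.51, is the only point beyond them.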

How the data were processed

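Both arrays were read from the deposited table of linear probe-set signal intensities, 45101 probe sets per array. GCOS 1.4 is named in the submitters' processing notes, and the sources used here do not give its settings. The mean intensity without the highest and lowest 2% of deposited values was 500.0 on both arrays, so a global scaling had been applied to each array. No normalization between arrays was added. Names came from the platform annotation (45037 non-control probe sets, of which 34945 had 1 symbol, 932 several and 9160 none), and all 20 family probe sets matched the same symbol in RefSeq through Entrez IDs.

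At gene level, the brightest probe set (mean log2 signal over both arrays) stood for the gene. The named genes were the 10 family genes with every probe set and, in each list, the 2 highest and 2 lowest log2 ratios and any gene past 2-fold, plus markers as a check of the tissue. The members and lists were chosen with earlier results of these data known. Alternatives were median centring, quantile normalization, loess (span 0.4), a floor at the 30th or 70th percentile or none, 50 added to each signal as a pseudocount, the median over a gene's probe sets, no suffixed probe sets (_s_at, _x_at, _a_at), and thresholds of 1.5- and 3-fold. No p-value or error between animals can be given. The number of arrays limits the precision. Calculations used Python 3.11.15, numpy 2.4.6, pandas 2.3.3 and statsmodels 0.14.6 and were tested on simulated data.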

Additional observations from a re-analysis of the deposited data

How the results depend on the processing

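The count of family probe sets past 2-fold was 0 under all scalings, beside 1.63% to 1.68% of all single-symbol probe sets that entered. At the 30th percentile floor it was 0 of 19, beside 5.55%, and with the 1.5-fold threshold 0 of 15, beside 12.5%. It was also 0 of 5 at the 70th percentile floor (0.88% of all), 0 of 15 with the pseudocount (0.95%) and 0 at 3-fold. These last settings can only lower ratios or counts, so they could not have changed a count of 0. With no floor it was 4 of 20, where 18.4% of all single-symbol probe sets passed. Those 4 lie below the 50th percentile floor on both arrays. The median log2 ratio of the family genes ran from -0.09 without suffixed probe sets to 0.04 with the median over probe sets, around 0. Among single genes, Egf stayed higher in its 8 alternatives (0.31 to 0.40) and had no value without suffixed probe sets. Egf has 1 probe set, far above every floor, so of these alternatives only the scalings could move its value appreciably. Tgfa came to 0.30 with the median over probe sets, since its 3 probe sets disagree, and Hbegf to 0.11. Egfr came to 0.13 without suffixed probe sets. Tgfa, Hbegf and Btc had no value with the floor at the 70th percentile. The ligand shedding median was -0.15 either without a floor or at the 30th percentile floor, -0.20 with the median over probe sets and -0.038 without suffixed probe sets. The receptor adaptor median was -0.11 with the median over probe sets, and the receptor inhibitor median -0.053 with no floor. For these list medians the cause was not tested. An alternative was taken as different where it moved a value by more than 0.35 (SD per probe set, log2), divided by the square root of the number of genes for a median. Signals below the floor cannot be told from background here. No paired analysis was possible because each group has 1 array, and leaving out a replicate was not possible.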
